A study of Homo sapiens with 4 samples.

Results

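The cytosolic ribosome is built from ribosomal RNA and a set of ribosomal proteins, each named RPL for the large subunit or RPS for the small one. The genes described here were chosen by symbol alone. A symbol had to have the form RPL or RPS with a number and, where present, the ending A, X, L, L1 or AL, or be RPLP0, RPLP1, RPLP2 or RPSA, and its mean over the 4 libraries had to be at least 1 TPM, the length-corrected transcript share of a library scaled to a total of 1e+06. Of 39323 genes, 85 symbols had that form and 82 were kept, 50 of the large and 32 of the small subunit. The ending A does not mark a copy (RPL7 and RPL7A are unrelated proteins), whereas L, L1 and AL mark paralogs, and RPS27A is a ubiquitin fusion.

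RNA was sequenced from RD and JR1, both established lines of fusion-negative rhabdomyosarcoma (FN-RMS), a childhood tumour with features of immature skeletal muscle. Each line had been infected with a lentiviral pLKO.1-puro vector that carried either a non-targeting hairpin (shSCR) or a hairpin against SKP2 (shSKP2.2). The comparison asks what the loss of SKP2, the subunit by which the SCF ubiquitin ligase recognises its substrates, does to gene expression in FN-RMS cells. There was 1 poly-A selected library for each line and condition, 4 in all, so no difference has a replicate check and no test was made. The shSCR library of a line is called its control and the shSKP2.2 library its knockdown. All 4 cultures were grown in high-glucose DMEM with serum, the control cells had been infected as well, and 1 hairpin stood for the knockdown. The labels give the control cells the genotype WT, which here means that SKP2 was not targeted, and name no separate clone.

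SKP2 itself measured 92.8 TPM in the RD control, 7.40 in the RD knockdown, 46.5 in the JR1 control and 2.72 in the JR1 knockdown, so both knockdown libraries matched their labels. Of the muscle lineage markers, MYOD1 (87.0 to 131 TPM) and CHRNA1 (196 to 425 TPM) were present in every library and MYF5 was listed at 0 in all 4, while the blood, endothelial, epithelial and liver markers PTPRC, PECAM1, EPCAM and ALB did not pass 0.16 TPM. TPM keep no read count, so the depth of each library and the counting error of each value are unknown. Short structural RNAs such as 7SL and 7SK took 58.6% of the TPM in the RD control, 69.1% in the RD knockdown, 66.5% in the JR1 control and 72.1% in the JR1 knockdown. Since TPM sum to the same total in each library, this share moves the value of every other gene, and changes are therefore also given relative to the median of the genes measured.

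In the ribosome the small subunit reads the mRNA and the large subunit joins the amino acids. The subunits need 1 copy of nearly every protein, and the genes lie scattered over the genome. Their mRNAs are known for a 5′ terminal oligopyrimidine (TOP) motif, a C at the cap followed by a run of C and T, through which the kinase mTORC1 and the protein LARP1 set how strongly they are translated. That control acts on translation, which TPM do not measure. In muscle and in tumours, ribosome production is a large part of the cost of growth.

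The start of 12 member genes is shown because most members carry the motif there, and because the genes with the largest changes and some of their paralogs are among them. Of the 12, RPL10A, RPL36AL and RPL26L1 lacked it. Each line gives the 10 bases before and the first 20 bases from the annotated transcription start, 5′ to 3′ on the coding strand, as RefSeq lists it for GRCh38.p14, with the run that starts at the first transcribed base in capitals where it made a TOP motif. The capitals thus lie in the 5′ end of the first exon. Where a gene had several listed starts, the first that made the motif is shown, or otherwise the first listed.
RPL34: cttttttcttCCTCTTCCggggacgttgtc
RPL36A: ctcgcggtttCTTTCTTTCCgcgccgatag
RPL27A: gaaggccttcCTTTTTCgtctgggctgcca
RPL12: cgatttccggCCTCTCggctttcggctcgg
RPL24: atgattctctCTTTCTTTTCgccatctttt
RPL10A: aagacatgctagtctcttttccggttagcg
RPL36AL: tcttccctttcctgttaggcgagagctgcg
RPL22: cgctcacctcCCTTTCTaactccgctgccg
RPL26: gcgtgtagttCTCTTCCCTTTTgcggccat
RPL26L1: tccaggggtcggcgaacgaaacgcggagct
RPL41: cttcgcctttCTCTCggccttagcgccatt
RPS18: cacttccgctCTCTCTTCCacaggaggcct
The windows are chr4:108620566-108620595 for RPL34, chrX:101391001-101391030 for RPL36A, chr11:8682782-8682811 for RPL27A and chr6:35468391-35468420 for RPL10A, all on the plus strand. Those of RPL12 (chr9:127451387-127451416), RPL24 (chr3:101686699-101686728), RPL36AL (chr14:49620607-49620636), RPL22 (chr1:6199576-6199605) and RPL26 (chr17:8383174-8383203) lie on the minus strand. Those of RPL26L1 (chr5:172958719-172958748), RPL41 (chr12:56116623-56116652) and RPS18 (chr6:33272065-33272094) lie on the plus strand. RPL10A counted as lacking the motif although a run of C and T begins a few bases after its annotated start. RPL36AL also counted as lacking it although a run of C and T crosses its annotated start and ends soon after. The count thus depends on where the start is placed.

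A start made the motif when its first transcribed base was C, followed without a break by at least 4 bases, each C or T. Only the coding strand was read. A gene was counted as having the motif when any of its listed starts made it. Of the 82 members 67 were in the RefSeq table of start sites and 47 of these had it (70.1%), against 7.21% of the other genes that averaged 1 TPM or more and 5.14% of all genes in the table. Counted by promoter, 47 of 83 member promoters had it (56.6%), against 4.07% of all promoters. Among translation factors and other proteins with known TOP mRNAs, such as EEF1A1 and EEF2, 12 of 14 in the table had it (85.7%). These were listed because their mRNAs are known for the motif, so their share only checks the rule. Of 69 mitochondrial ribosomal protein genes 6 had it (8.70%). A match is a description of these letters and does not show where transcription started in these cells.

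The ribosomal protein mRNAs were among the most abundant in all 4 libraries. They summed to 52911 TPM in the RD control and 40205 in the RD knockdown, and to 44256 TPM in the JR1 control and 40741 in the JR1 knockdown. Of the TPM left without short structural RNAs they took 12.8%, 13.0%, 13.2% and 14.6% in the same order. Of the 50 highest genes that were not short structural RNAs, 27 were members. The mean TPM of a member ranged from 1.13 to 2307 with a median of 486. In all, 70 members averaged at least 100 TPM, 10 at least 1000 and 2 under 10.

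RPL41, the smallest ribosomal protein, had the highest mean over the 4 libraries, with 2649.8 TPM in the RD control, 1906 in the RD knockdown, 2591 in the JR1 control and 2081 in the JR1 knockdown. RPS18, at the head of the small subunit, had 2969, 2366, 1480 and 1625 TPM, so both RD libraries lay above both JR1 libraries, and in RD it lay above RPL41. RPL35, next in order, had 1819, 1501, 1661 and 1502 TPM, a narrower range across the libraries. Small subunit members had the higher middle value, with a median of mean TPM of 535 against 364 for the large subunit.

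The levels did not follow the equal numbers in which the proteins enter the ribosome, and transcript length moved with them. Across the 82 members the length of the canonical GENCODE release 44 transcript and the mean TPM had a Spearman correlation of −0.59, given as a description. The 19 members with a canonical transcript of at least 2000 bases had a median of 144 TPM, against 553 TPM for the 63 shorter ones. RPL27A, with 4535 bases, had 47.7, 20.9, 44.7 and 15.3 TPM in the order RD control, RD knockdown, JR1 control, JR1 knockdown. The transcript lengths by which the authors divided are not given in the sources used here, and their part in the levels was not tested.

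**Figure D1:**
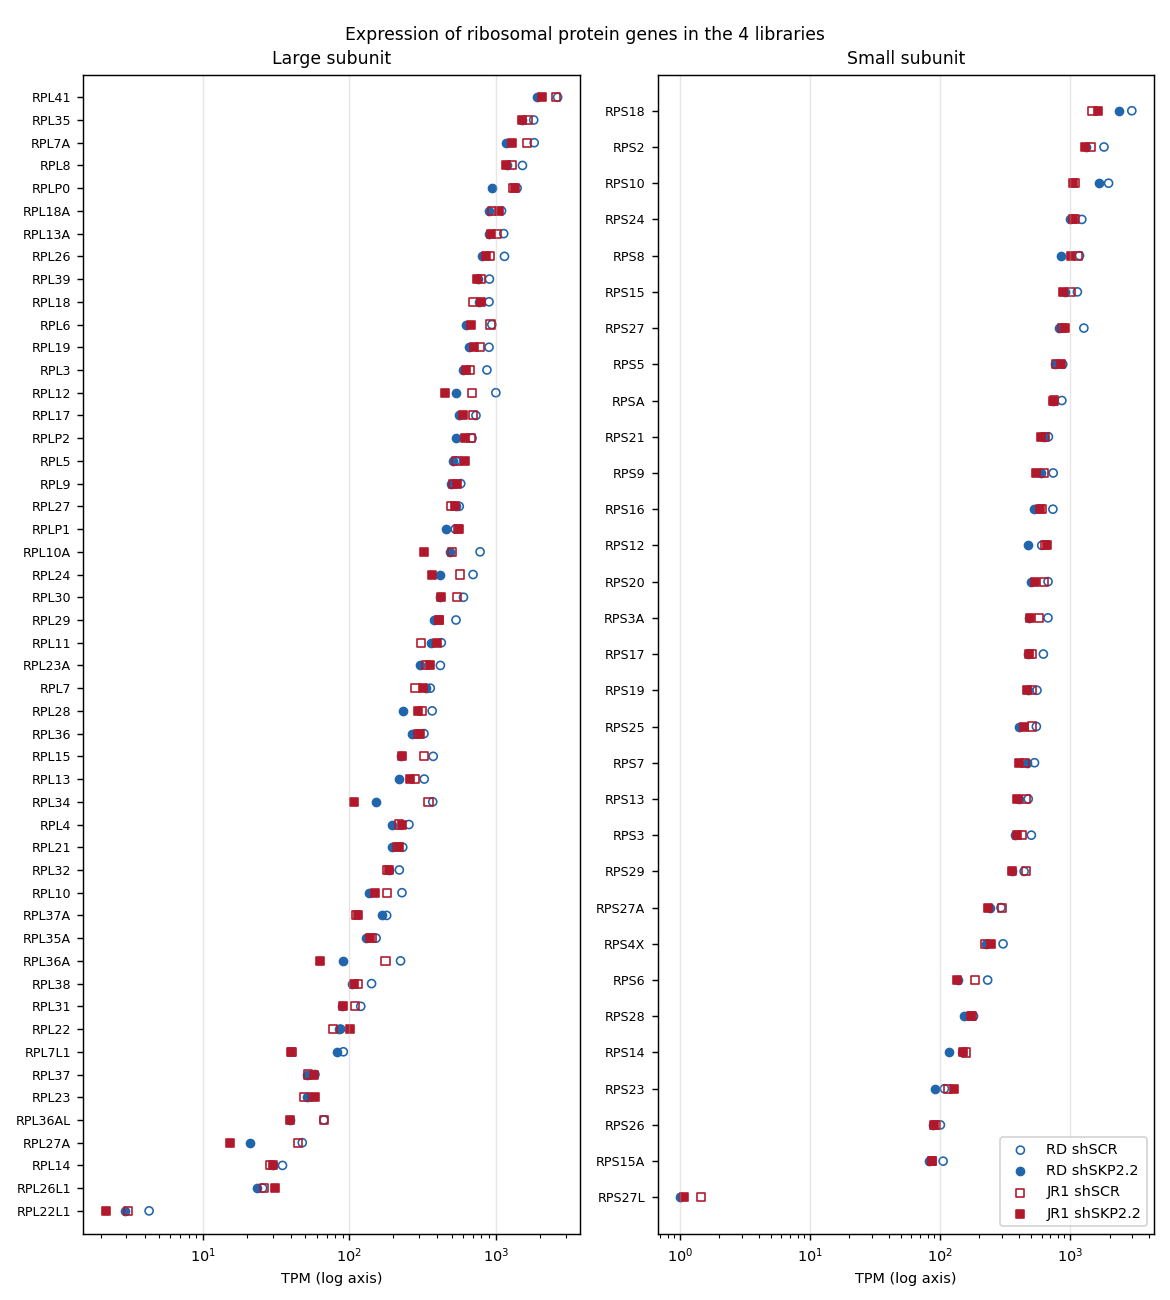
TPM of ribosomal protein genes in the 4 libraries (log axis, 1 point per library, genes ordered by their mean within each subunit). The 4 points of many genes lie close together, while RPL34, RPL36A and RPL27A show both shSKP2.2 libraries far to the left of both shSCR libraries. RPL10A, RPL12, RPL7L1 and RPS18 also span a wide range, and for RPL7L1 and RPS18 both RD libraries lie to the right of both JR1 libraries.

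The change of a gene was taken within a line, as the log2 ratio of its knockdown to its control value after 1 TPM had been added to each, and the 12985 genes that averaged 1 TPM or more gave the background. A change of at least 1, a difference of 2-fold on that scale, was counted as a rise or a fall. In RD the members had a median change of −0.34 against −0.27 for all genes measured, and 82 of 82 were below 0 (75% of all genes). In JR1 the median was −0.09 against −0.21, and 55 of 82 were below 0 (68.9% of all genes). These signs depended on the scale: with short structural RNAs removed and the rest rescaled, the member median became 0.078 in RD and 0.18 in JR1, 33 and 19 members were below 0, beside medians of 0.12 and 0.01 for all genes. Relative to all genes, then, the members lay 0.072 lower in RD and 0.13 higher in JR1 on the deposited scale. In bulk RNA a lower level in every cell and fewer cells with the mRNA cannot be told apart, and TPM give shares of a library, not amounts per cell.

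The members moved as a narrow group. Their interquartile range was 0.26 in RD and 0.29 in JR1, beside 0.56 and 0.63 for all genes, and 95.1% and 91.5% of members lay within 0.5 of their own median, beside 74.8% and 69.3% of all genes. The 426 other genes that averaged 100 TPM or more had interquartile ranges of 0.48 and 0.63, lower than all genes in RD and about the same in JR1. The spread was also narrower than in 78 mitochondrial ribosomal proteins (0.37 and 0.42), 77 nuclear subunits of oxidative phosphorylation (0.37 and 0.41) and 37 proteasome subunits (0.38 and 0.42), but not than in the 6 chaperones of single ribosomal proteins (0.037 and 0.13).

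The order of the members was similar in the lines, which share no library. Across the 82 members the changes in RD and JR1 had a Pearson correlation of 0.83 and a Spearman correlation of 0.64, and without the 3 largest falls these were 0.68 and 0.60 over 79 members. Both are descriptions, and genes are not independent replicates. On the deposited scale the change was lower in RD than in JR1 for 75 members. In all, 55 members were below 0 in both lines and 27 were below 0 in RD and above 0 in JR1. The matching counts over all genes were not made, and the member counts move with the scale. RPL24, for example, had −0.76 in RD and −0.64 in JR1 as deposited. With short structural RNAs removed it had −0.34 and −0.38, so its order turned.

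**Figure D2:**
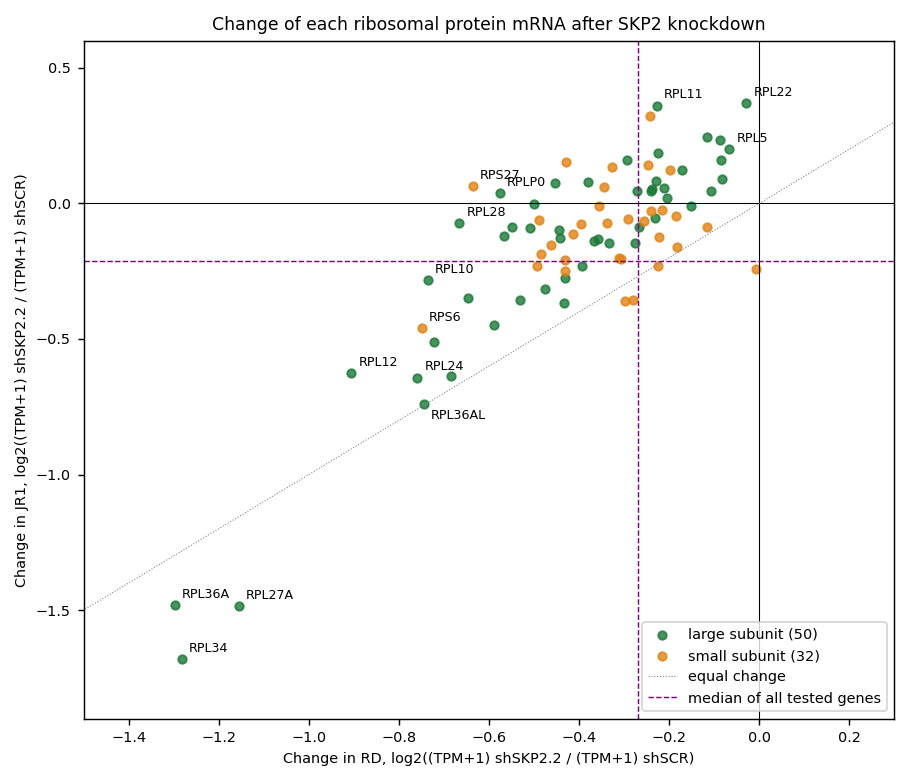
Change of each member in RD (x axis) and JR1 (y axis), as log2 ratio of knockdown to control with 1 TPM added, coloured by subunit, with the median of all genes measured dashed. RPL34, RPL36A and RPL27A lie alone at the lower left, below −1 in both lines, and most points lie above the line of equal change. The position of 0 on both axes, and of the points against the line of equal change, moves with the scaling of the libraries.

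Large and small subunit genes differed little in the middle of their distributions. The median change in RD was −0.39 for the 50 large subunit genes and −0.31 for the 32 small subunit genes, and in JR1 it was −0.09 and −0.08. The tails differed more: 18 large and 2 small subunit genes lay below −0.5 in RD, and 8 and 0 did in JR1. The 25th percentile of all genes was −0.56 in RD and −0.55 in JR1. More than 25% of all genes thus lay below −0.5 in each line. Of the summed member TPM the large subunit took 55.9% in the RD control and 54.3% in the RD knockdown, and 58.2% in the JR1 control and 56.9% in the JR1 knockdown. Its share was thus lower in the knockdown library of each line.

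RPL34, RPL36A and RPL27A fell in both lines, and no member rose. That is 3 of 82 members in each line, where 7.37% of all genes fell in RD and 9.05% in JR1, and where 1.08% and 1.78% rose. The same 3 fell in both lines, as 4.79% of all genes did. They were the 3 lowest members of each line under all 9 settings tried. Those settings leave member values as they are or move all members of a line nearly alike, so the order could hardly change. In RD the 3 genes lay between −0.76 and −0.88 and no longer passed −1 once short structural RNAs were removed. In JR1 they then lay between −1.23 and −1.42.

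RPL34, a protein of the large subunit, measured 372 TPM in the RD control, 152 in the RD knockdown, 347 in the JR1 control and 108 in the JR1 knockdown. The controls of both lines lay within a narrow range and both knockdown libraries lay far under it. The change was −1.28 in RD and −1.68 in JR1. RPL34 spans chr4:108620576-108630484, and the 15 other genes measured within 2500000 bases of it had median changes of −0.26 in both lines, the level of all genes.

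RPL36A, which lies at the tRNA exit site of the large subunit, measured 224 TPM in the RD control, 90.5 in the RD knockdown, 177 in the JR1 control and 62.7 in the JR1 knockdown, a change of −1.30 and −1.48. The readthrough gene RPL36A-HNRNPH2, which joins it to its neighbour, measured 18.8, 17.6, 19.4 and 15.2 TPM in the same order, with a change of −0.09 in RD and −0.33 in JR1. By these estimates the readthrough gene did not share the fall, but the division of reads that match both genes is uncertain. The 28 other genes measured around RPL36A had medians of −0.35 and −0.33.

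RPL27A, a large subunit protein on chromosome 11, had a change of −1.16 in RD and −1.49 in JR1 from the values given above. Its levels were low for a member, but both shSKP2.2 libraries lay under both shSCR libraries. The 43 other genes measured around it had medians of −0.23 and −0.25. All 3 genes carry the TOP motif shown above, as do RPL22 and RPL41, which did not fall, so its presence did not set them apart.

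Other members also lay under the member median in both lines. Taking each line's own member median as the reference, 10 members lay at least 0.25 under it in both lines, of which 9 were of the large subunit: the 3 genes above, RPL12, RPL24, RPL36AL, RPL10A, RPL15 and RPL7A. The tenth was RPS6. The large subunit makes up 50 of the 82 members. How many of all genes lay as far under their own median in both lines was not counted. All genes spread wider than the members, with interquartile ranges of 0.56 in RD and 0.63 in JR1.

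RPL12, a base of the stalk to which elongation factors bind, measured 1003 TPM in the RD control, 535 in the RD knockdown, 692 in the JR1 control and 448 in the JR1 knockdown. The groups did not overlap, and the change was −0.91 in RD and −0.63 in JR1. RPL24, which forms a bridge to the small subunit, measured 701, 413, 572 and 366 TPM, with −0.76 and −0.64. RPL36AL, the autosomal paralog of the X-linked RPL36A, measured 67.0, 39.6, 66.9 and 39.6 TPM, with −0.74 in both lines. On the deposited scale its control values were alike in the lines and so were its knockdown values. With short structural RNAs removed, the log2 ratio of RD to JR1 was −0.30 in shSCR and −0.15 in shSKP2.2.

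RPL10A, a protein of the mobile L1 stalk, measured 782, 486, 500.5 and 322 TPM in the same order and had changes of −0.69 in RD and −0.64 in JR1. RPS6, the small subunit protein phosphorylated by S6 kinase under mTORC1, measured 231, 137, 184 and 133 TPM and had changes of −0.75 and −0.46. RPL15 had changes of −0.72 and −0.51, and RPL7A of −0.65 and −0.35. With short structural RNAs removed RPL12 lay at −0.48 and −0.36 and RPL24 at −0.34 and −0.38, lower than 0 on that scale too.

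At the other end, 6 members stood highest above the member medians in both lines: RPL22, RPL5, RPL23, RPL7, RPL26L1 and RPL27, all of the large subunit. RPL22, which also binds RNAs outside the ribosome, measured 87.3 TPM in the RD control, 85.5 in the RD knockdown, 77.5 in the JR1 control and 100.5 in the JR1 knockdown. RPL22 had changes of −0.03 in RD and 0.37 in JR1, and with short structural RNAs removed these were 0.39 and 0.64. RPL23 had changes of −0.09 and 0.23, RPL7 of −0.09 and 0.16, and RPL27 of −0.08 and 0.09. None passed 1 on any of these scales.

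RPL5 and RPL11 form a particle with 5S RNA, and the free particle binds MDM2, the ligase that degrades p53. The study lists RD and JR1 as lines with mutated p53. RPL5 measured 535 TPM in the RD control, 511 in the RD knockdown, 539.9 in the JR1 control and 619.9 in the JR1 knockdown, a change of −0.07 and 0.20. RPL11 measured 425, 363, 309.7 and 398 TPM, with −0.23 and 0.36. Both stood above the member median in each line.

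The P stalk, RPLP0 with RPLP1 and RPLP2, recruits elongation factors to the large subunit. RPLP0 measured 1400.3 TPM in the RD control, 939 in the RD knockdown, 1317 in the JR1 control and 1352 in the JR1 knockdown. It had changes of −0.58 in RD and 0.04 in JR1. On the deposited scale the RD knockdown lay apart from its other 3 values, which were close together. That pattern moves with the share of short structural RNAs in each library. RPLP1 had changes of −0.21 and 0.02 and RPLP2 of −0.37 and −0.14, so the stalk proteins differed from each other in RD more than in JR1.

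Members near the peptidyl transferase centre, RPL3, RPL4 and RPL10, had medians of −0.55 in RD and −0.09 in JR1. RPL10, which is added late in the maturation of the subunit, measured 229, 137, 182 and 149.5 TPM in the order RD control, RD knockdown, JR1 control, JR1 knockdown and was lowest, with −0.74 and −0.28. RPL3 had changes of −0.55 and −0.09, and RPL4 of −0.38 and 0.08. All 7 members at the exit of the peptide tunnel were below 0 in RD, as all 82 members were, from RPL26 at −0.51 to RPL39 at −0.27. In JR1 6 of the 7 were below 0, beside 55 of the 82 members and 68.9% of all genes. The 7 ranged there from RPL31 at −0.27 to RPL23A at 0.08.

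In the small subunit, RPS2, RPS3 and RPS23, which line the mRNA entry and the decoding site, had changes of −0.46, −0.41 and −0.25 in RD, and in JR1 of −0.15, −0.11 and 0.14. RPS26 and RPS28, at the mRNA exit, had changes of −0.19 and −0.24 in RD, and in JR1 of −0.05 and −0.03. RPSA, a protein of the same side that was first described as a laminin receptor, measured 860.2, 739.9, 743 and 731 TPM and had changes of −0.22 and −0.02. RPS27A, which is made fused to ubiquitin, had changes of −0.28 and −0.36, and RPS4X, from the X chromosome, of −0.43 and 0.15. None of these reached the limit in either line.

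The changes in the lines lay farthest apart for RPS27, RPLP0 and RPL28, which were lower in RD. RPS27 is a zinc finger protein of the small subunit. It measured 1270 TPM in the RD control, 816 in the RD knockdown, 867 in the JR1 control and 905 in the JR1 knockdown. On the deposited scale the RD control thus stood above the other 3 libraries. RPS27 had changes of −0.64 in RD and 0.06 in JR1. RPL28 had changes of −0.67 and −0.07. In the other direction the gap was widest for RPL34 and RPL27A, which were lower in JR1, and for RPS27L at about 1 TPM.

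Mutations of ribosomal protein genes cause Diamond-Blackfan anaemia, and 18 members were listed as such genes. In RD 18 of 18 were below 0 with a median of −0.25, and in JR1 13 of 18 with a median of −0.06. Below 0 on the same scale were 82 of 82 members and 75% of all genes in RD. In JR1 55 of 82 members and 68.9% of all genes were, so these counts do not set the 18 apart. Of the 18, RPL15 was lowest in both lines. None fell by at least 1.

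The TOP motif did not separate the changes. In RD the 47 members with it had a median of −0.35 and the 20 without it −0.30, and in JR1 the medians were −0.09 and −0.11. Transcript length had Spearman correlations with the change of 0.11 in RD and 0.15 in JR1 over 82 members, which are weak.

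Paralogs were measured beside their like-named genes. RPL36AL has 89.9% of coding bases identical to those of RPL36A. It took 23.03% of the pair's TPM in the RD control and 30.4% in the RD knockdown. In JR1 it took 27.5% in the control and 38.7% in the knockdown. Its share was higher in the knockdown library of each line although both genes were lower there. This share does not depend on the scale of the library. RPL26L1, 84.1% identical to RPL26, measured 25.6, 23.5, 26.1 and 31.2 TPM and took 2.18%, 2.83%, 2.76% and 3.49% of its pair, again more in each knockdown library.

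RPL22L1, which is 66.6% identical to RPL22 and is known to be repressed by it, measured 4.29 TPM in the RD control, 2.92 in the RD knockdown, 3.10 in the JR1 control and 2.18 in the JR1 knockdown. Its share of the pair was 4.68%, 3.30%, 3.85% and 2.12%, lower in each knockdown library. RPL7L1, which acts in the assembly of the large subunit, took 20.3% and 19.6% of its pair in RD and 12.5% and 11.2% in JR1, so this share differed between the lines more than between the conditions. RPS27L measured 1.01, 1.00, 1.45 and 1.07 TPM beside RPS27, a share of 0.079% to 0.167%.

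The members of lowest mean TPM were RPS27L, just inside the limit of 1 TPM at 1.13, RPL22L1 at 3.12 and, well above it, RPL26L1 at 26.6. RPL39L, listed at 0.61 TPM in the RD control and at 0 in the other 3 libraries, RPL3L, at 0.07 TPM or less, and RPL10L, at 0 in all 4, lay outside it. RPL3L is a paralog of striated muscle, and its partner RPL3 measured 871, 596, 667 and 629 TPM. RPL39L and RPL10L are known from the testis.

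Near-identical copies limit single values. By symbol 31 processed copies of members were in the table, of which 15 averaged at least 1 TPM and 3 at least 10, and their sum came to 1.25% to 1.38% of the member TPM. RPL13AP5 was the main one, with 526, 409, 481 and 446 TPM in the order RD control, RD knockdown, JR1 control, JR1 knockdown, or 31.2% to 32.6% of the summed TPM of RPL13A and RPL13AP5. RSEM divides reads that match several genes by estimate. The split between such genes, and between RPL36A and RPL36AL or RPL36A-HNRNPH2, is thus uncertain.

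FAU, which encodes a ribosomal protein outside the naming scheme as a fusion, had 376, 305, 342 and 280 TPM in the same order, with changes of −0.30 and −0.29. The 20 translation factors and other proteins with TOP mRNAs had medians of −0.32 in RD and 0.03 in JR1, which is 0.24 above all genes in JR1, and 0 of 20 passed the limit in either line. EEF1A1, the elongation factor that delivers tRNA, had changes of −0.34 and −0.11, EEF2, the translocation factor, of −0.12 and 0.42, and NPM1, a nucleolar chaperone, of −0.43 and −0.23. HNRNPA1 was lowest in both lines (−0.86 and −0.64), PABPC1 highest in RD (0.31) and EIF3L highest in JR1 (0.63).

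The 63 ribosome biogenesis factors had medians of −0.31 in both lines, with 1 fall in RD and 2 in JR1. NHP2, a protein of the particles that modify ribosomal RNA, fell in both (−1.03 and −1.36), RRP9 was highest in RD (0.32) and NSUN5 in JR1 (0.62). FBL, the methyltransferase of ribosomal RNA, had changes of −0.37 and −0.02 and NCL, nucleolin, of −0.70 and −0.84. RNA polymerase I and its factors, 14 genes, had medians of −0.23 and −0.33, from POLR1F, which fell in both lines (−1.44 and −1.20), to RRN3 (0.39 and 0.36). Of 6 chaperones of single ribosomal proteins none passed the limit, with TSR2, which carries RPS26, lowest (−0.73 and −0.67) and BCCIP, which carries RPL23, highest (0.05 and 0.22).

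On the deposited scale, of 20 cytosolic aminoacyl tRNA synthetases 3 fell in RD and 0 in JR1, from QARS1 (−1.34 and −0.95) to YARS1 (0.35 and 0.65). Mitochondrial ribosomal proteins had medians of −0.30 and −0.20 with 1 and 3 falls, among them MRPL24 in RD (−1.01) and MRPS28 in JR1 (−1.08), and MRPL22 (0.24) and MRPL48 (0.58) were highest. Oxidative phosphorylation subunits had −0.22 and −0.24, with ATP5MC1 lowest (−1.93 and −1.97) and COX7C highest (0.98 and 1.38). Proteasome subunits had −0.38 in both lines, with PSMD14 lowest in RD (−1.32) and PSMB10 in JR1 (−1.55), and PSMD9 (0.20) and PSMD8 (0.38) highest. Oxidative phosphorylation and the proteasome held 2 falls each in RD and 2 and 3 falls in JR1, and COX7C was the 1 gene of these lists that rose.

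The lines were compared within each condition, as log2 of TPM + 1 in RD over JR1. In the shSCR libraries the members had a median of 0.19 beside 0.23 for all genes, and 9 of 82 were below 0 (28.3% of all genes). In the shSKP2.2 libraries the median was −0.05 beside 0.17, and 54 of 82 were below 0 (31.9% of all genes). Only 2 members were higher in RD by at least 1 in shSCR (6.5% of all genes) and 1 in shSKP2.2 (5.39%), and none was higher in JR1 by that much (3.45% and 2.7% of all genes). With short structural RNAs removed none of them passed 1, and the member medians were −0.11 and −0.20, so the sign of the shSCR median depended on the scale.

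The members with the largest differences in shSCR, RPL7L1, RPS18 and RPS10, came from the short arm of chromosome 6, as did RPL10A. RPL7L1 measured 91.0 and 81.9 TPM in RD and 40.4 and 40.1 TPM in JR1, a difference of 1.15 in shSCR and 1.01 in shSKP2.2. RPS18, with the values given above, differed by 1.00 and 0.54. RPS10 measured 1968 and 1649 TPM in RD and 1085 and 1039 TPM in JR1, a difference of 0.86 and 0.67. RPL10A differed by 0.64 and 0.59. For RPL7L1, RPS18 and RPS10 both RD libraries lay above both JR1 libraries.

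The other genes of that stretch differed in the same way. Between 25 and 45 Mb of chromosome 6, a window set after the values were seen, the 284 other genes measured had median differences of 1.02 in shSCR and 0.84 in shSKP2.2, and 52.5% and 35.6% of them were higher in RD by at least 1. The 375 genes on the rest of the chromosome had medians of 0.22 and 0.15. RPS12, the member on the long arm, differed by −0.08 and −0.49. The number of copies of this stretch in the lines was not measured here, and its part in the difference was not tested.

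Outside it, RPL37A on chromosome 2 measured 180.0 and 167 TPM in RD and 112 and 115 TPM in JR1, a difference of 0.68 and 0.53, and the 31 other genes around it had medians of 0.75 and 0.60. Across the 82 members the difference and the median of the genes within 2500000 bases had Spearman correlations of 0.47 in shSCR and 0.36 in shSKP2.2, as a description of points that share libraries.

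At the lower end in shSCR, RPS27L, RPS23, RPS14, RPS12 and RPLP1 differed by −0.29, −0.10, −0.09, −0.08 and −0.06, which is close to 0. RPL34, RPL36A and RPL27A, near 0 or little above it in shSCR (0.10, 0.34 and 0.09), stood at 0.50, 0.52 and 0.42 in shSKP2.2.

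**Figure D3:**
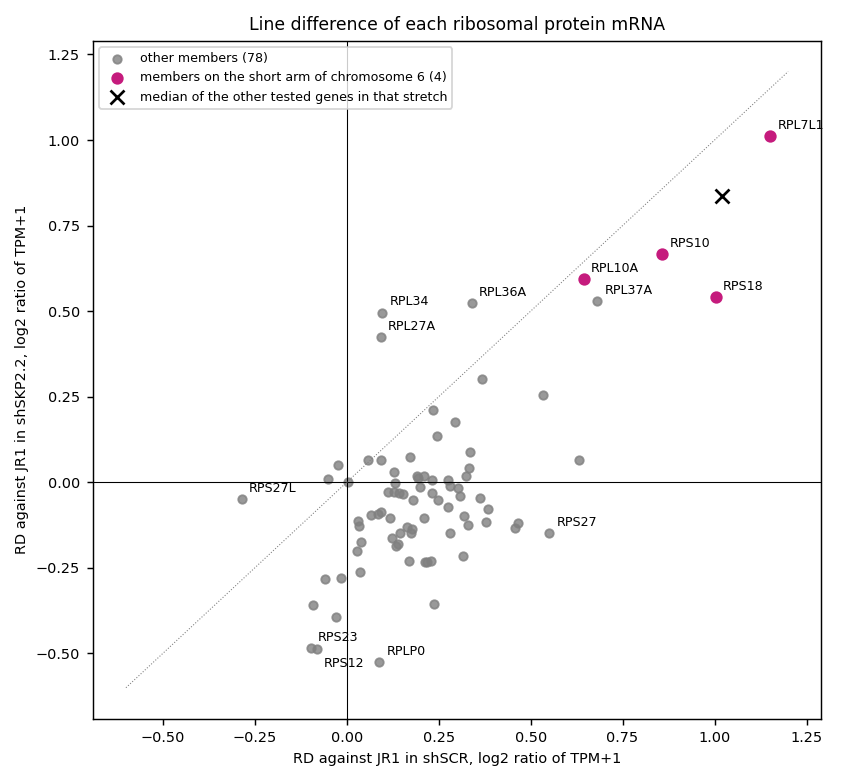
Difference between RD and JR1 of each member in shSCR (x axis) and shSKP2.2 (y axis), log2 of TPM + 1 in RD over JR1. The 4 members on the short arm of chromosome 6 lie toward the upper right, from RPL7L1 (1.15 and 1.01) to RPL10A (0.64 and 0.59). The cross is the median of the other genes there, at 1.02 and 0.84. The other 78 members have medians of 0.18 and −0.06, and RPL34, RPL36A and RPL27A stand above the dotted line of equal difference. The zero of both axes moves with the scaling of the libraries.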

How the data were processed

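Directional libraries were made from poly-A RNA. The authors mapped reads to GRCh38 (STAR 2.7.9a) and deposited the TPM that RSEM 1.3.2 gave each gene. Depth is unknown, and poly-A selection and division by length both bear on levels. TPM were used as deposited. A change or line difference was log2 of a ratio of TPM + 1, over 12985 genes averaging 1 TPM or more, and 1 on that scale was the limit for a call. The pseudocount understates changes of low genes. With 1 library per group no test was made. Genes named with values came from a rule on level, change and role. Some genes are not reported here. The members and lists were chosen with earlier results of these data known. Alternatives were a pseudocount of 0.1, centring on all genes, removal of 2989 short structural RNA genes, coding genes only, a minimum of 5 TPM, all genes above 0, 1 gene per protein and a 1.5-fold limit. Starts came from RefSeq, and transcript lengths and coding sequences from GENCODE 44. Scripts were tested on simulated data (Python 3.11.15, numpy 2.4.6, pandas 2.3.3, scipy 1.17.1, matplotlib 3.10.9).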

Additional observations from a re-analysis of the deposited data

Results flagged for a closer look

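With 1 library per line and condition, a gene was singled out where its change was below 0 in RD and above 0 in JR1. No gene named here had the opposite pattern. The difference between the lines was not tested for any of them, and the signs depend on the scale of the library. Among members, the change in RD minus that in JR1 was −0.70 for RPS27, −0.61 for RPLP0, −0.59 for RPL11, −0.58 for RPS4X and −0.53 for RPL23A. It was −0.46 for RPS18, −0.46 for RPL4, −0.41 for RPS12, −0.40 for RPL22, −0.39 for RPS23, −0.36 for RPL26L1 and −0.32 for RPL23. It was −0.27 for RPL5, −0.25 for RPL7, −0.22 for RPLP1, −0.17 for RPL27 and −0.15 for RPL37A. Outside the members it was −0.96 for NSUN5 and −0.55 for EEF2. The member medians themselves were −0.34 in RD and −0.09 in JR1.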

How the results depend on the processing

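No replicate block could be fitted because the labels give no replicate numbers. The changes were taken within each line, and a fit over both lines with line as a block, which would leave 1 residual degree of freedom, was not run. Of 248 recomputed summary values 205 stayed within 0.1 on the log2 scale or within 1.5 times, and 43 moved, all by rescaling, by the limit or by leaving out paralogs. Centred on all genes, the member median was −0.072 in RD (52 members below 0) and 0.13 in JR1 (23 below 0), and −0.040 in shSCR (49 below 0) and −0.22 in shSKP2.2 for the line differences, with 0 members over the limit in either condition. With short structural RNAs removed the values were 0.078 (33 below 0, 0 falls), 0.18 (19 below 0), −0.11 (60 below 0, 0 over the limit) and −0.20 (0 over the limit), and with coding genes only 0.085 (33 below 0, 0 falls), 0.18 (19 below 0), −0.11 (60 below 0, 0 over the limit) and −0.19 (0 over the limit). The member share of TPM in RD shSCR, RD shSKP2.2, JR1 shSCR and JR1 shSKP2.2 was 12.8%, 13.0%, 13.2% and 14.6% without short structural RNAs and 13.1%, 13.4%, 13.6% and 15.03% among coding genes. At a 1.5-fold limit 14 members fell in RD (23.2% of all genes) and 7 in JR1 (23.4%), and 6 were higher in RD in shSCR (20.4%) and 3 in shSKP2.2 (16.2%). Without paralogs 1 member was over the limit in shSCR and 0 in shSKP2.2. The difference between the subunits stayed within 0.1 under every alternative, as did the changes under the other pseudocount and minimum. Without replicates or counts, no error can be put on any single value.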
